A study of Mus musculus with 6 samples.

Results

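Guidance molecules of the ephrin, semaphorin, Slit and netrin systems and their receptors were examined in mouse embryoid body cells with and without HOXB4. A gene was included when 1 feature of the array named it alone and its symbol was that of an ephrin, an Eph receptor, a semaphorin of classes 3 to 7, a plexin, Slit1 to Slit3, Robo1 to Robo3, a netrin or an Unc5 receptor. This gave 62 of the 30702 genes on the array, 33 ligands and 29 receptors. The choice used names only, with no measured value. Ephb1 had several such features, of which the brightest over the 6 arrays was kept. Sema4a and Ntn3 appear on features shared with another gene and, like Ephb2, were not analysed here.

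Guidance molecules steer growing axons and also migrating cells and sprouting vessels. Ephrins are bound to the membrane and are read by Eph receptor tyrosine kinases on the neighbouring cell. Semaphorins act mostly through plexins, class 3 with neuropilin co-receptors, while Slits act through Robo receptors and netrins through Dcc, neogenin and Unc5 receptors. In the early vasculature ephrin-B2 and EphB4 mark arterial and venous endothelium, and plexin D1, Unc5b and Robo receptors are carried by endothelial cells.

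Both groups were iRunx cells, by the labels' name, differentiated from mouse embryonic stem cells as embryoid bodies for 4 days and sorted as Flk1+ PDGFRα- cells, the fraction in which endothelial and blood precursors are found. The control group had 3 arrays of sorted cells without retroviral expression of tdTomato and HOXB4, and the HOXB4 group had 3 arrays of sorted cells with it. HOXB4 is a homeodomain protein and tdTomato a red fluorescent protein. The series text describes the replicates as separate experiments, and the question is which genes differ with HOXB4. The labels do not say whether controls carried an empty vector or whether a Runx gene was induced. The level of HOXB4 itself was not analysed here. Kdr, which encodes the sorting marker Flk1, stood at 13.72, 14.12 and 13.83 on control arrays and 14.33, 13.68 and 13.82 on HOXB4 arrays, well above background on every array. In sorted bulk cells, fewer cells of a type and less RNA per cell cannot be told apart.

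Values are log2 expression summaries, 1 array per sample, and values of a group are always given in the order of replicates 1 to 3. A gene was called above background when its mean over the 6 arrays exceeded 5.43, the mean over arrays of the 95th percentile of 23 background features. By this strict bar 40 of the 62 guidance genes were above background, 22 ligands and 18 receptors, as were 14310 of all genes. The bar lies above the median gene of every array (5.10 to 5.22), and the 22 genes under it are given as values with no fold. With 3 arrays a group, precision is limited.

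No guidance gene differed between the groups past the test's threshold. With limma's moderated test and Benjamini-Hochberg adjustment over all genes, 0 of the 62 had an adjusted p below 0.05, as did 0% of all genes, and the smallest adjusted p among them was 0.605. The linear model without moderation also called 0. At an unadjusted p below 0.05 there were 7 guidance genes, 11.3% against 8.19% of all genes. Efna1, Efnb1, Sema5a, Unc5c and Robo2 were lower in HOXB4 cells, 5 genes or 8.06% against 5.95% of all genes. Epha1 and Sema3c were higher, 2 genes or 3.23% against 2.23% of all genes. Each of these shares is near the background and is not a result about guidance genes. The 7 became 3 without control 1, 18 without HOXB4 2, 4 without HOXB4 3 and 3 without moderation.

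Differences, HOXB4 minus control on the log2 scale, had a median of 0.001 over the 62 genes, against -0.039 over all genes. They lay below 0 for 31 guidance genes, 50.0% against 60.0% of all genes. With cyclic loess 25 of the 62 lay below 0 (48.28% of all genes), and with arrays centred on their medians 28 (54.94% of all genes). All 3 HOXB4 values lay under all 3 control values for 5 guidance genes, 8.06% against 10.2% of all genes, and above them for 0, against 3.24% of all genes. The genes without overlap were Efna1, Efnb1, Sema5a, Unc5c and Epha8. Among those above background, 4 of 40 were lower (background 9.17% of all genes above the bar) and 1 of 40 higher (background 3.18%) at an unadjusted p below 0.05. Of the 40, 17 lay below 0 (42.5% against 57.3%) and 4 were lower without overlap (background 13.5%).

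**Figure D1:**
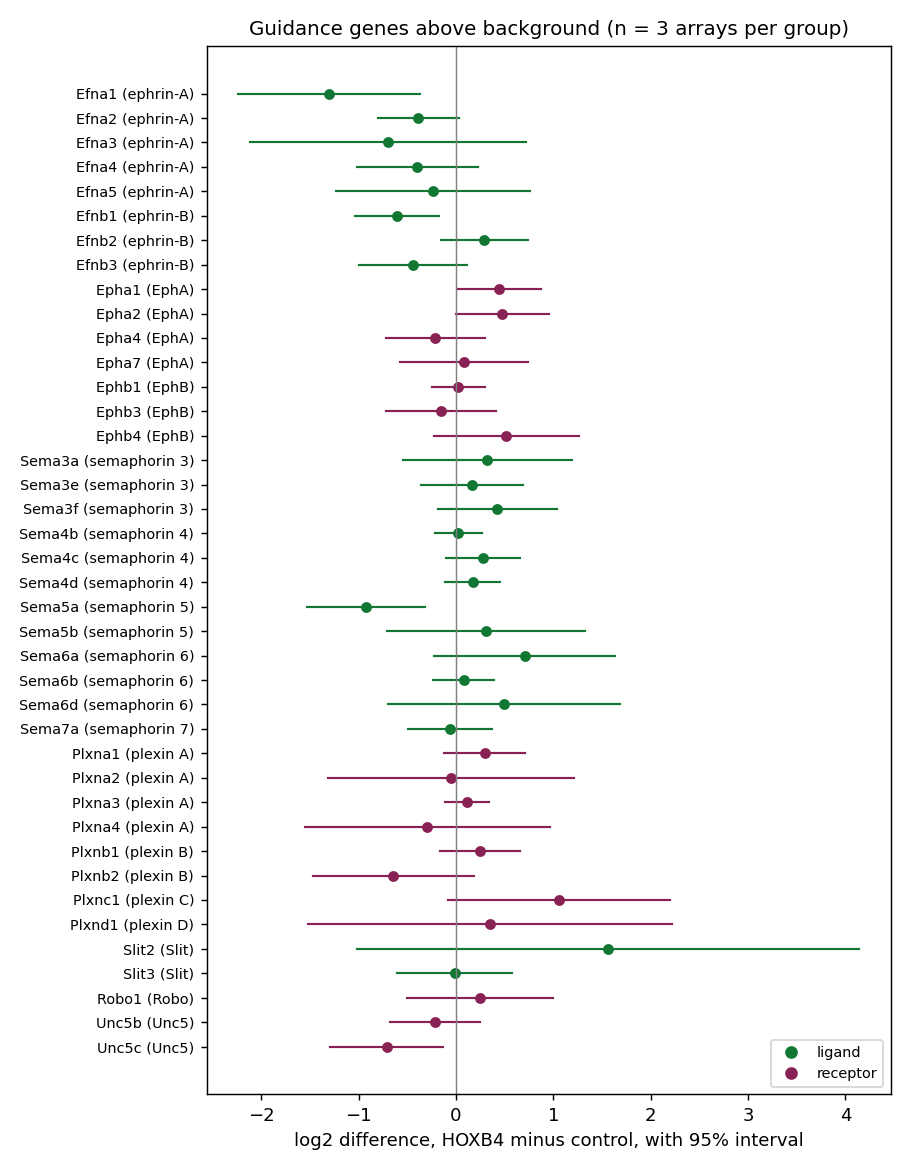
Log2 difference, HOXB4 minus control, of the 40 guidance genes above background, with the 95% interval of limma's moderated fit (3 arrays per group). Ligands are green and receptors purple; the intervals of Slit2, Plxnd1, Plxna2, Plxna4 and Efna3 are the widest, and before adjustment the intervals of Efna1, Efnb1, Sema5a and Unc5c lie wholly below 0 and that of Epha1 just above 0.

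Among ephrin ligands, 7 of 8 had differences below 0 and 1, Efnb2, above. All 5 class A genes, whose products are tied to the membrane by a lipid anchor, lay below 0, with a median of -0.40 and a range from -1.30 to -0.24; without HOXB4 1 Efna5 turned to 0.0925. Over all genes 60.0% lay below 0. Of the 8 ephrins, 0 passed the adjusted threshold and 2 were below an unadjusted p of 0.05, a level that 8.19% of all genes reached. These counts describe a few genes, of which some are neighbours, and no test of the family was made. The 3 class A genes Efna1, Efna3 and Efna4 are neighbours on chromosome 3. Efna1 lies at chr3:89271730-89280951, Efna3 at chr3:89313899-89322939 and Efna4 at chr3:89333393-89338028 (GRCm38.p6), with gaps of 32948 and 10454 bases between them.

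Efna1, an ephrin that binds EphA2 and is known for its part in vessel growth, stood at 8.44, 7.66 and 7.98 on control arrays and 6.66, 7.53 and 5.99 on HOXB4 arrays. Every HOXB4 value lay below every control value, but HOXB4 2 was just under control 2. The means were 8.03 ± 0.40 on control and 6.73 ± 0.77 on HOXB4 arrays (SD, n = 3 per group), a difference of -1.30 (SE 0.39) or 2.47-fold with a 95% interval of -2.24 to -0.36 (limma adjusted p = 0.605; 3 of 3 HOXB4 values lower). Efnb1, an X-linked transmembrane ephrin at chrX:99136061-99149022, stood at 8.03, 7.99 and 7.88 on control arrays and 7.13, 7.79 and 7.18 on HOXB4 arrays. Here too the groups did not overlap, controls were close together and HOXB4 2 came nearest to them. The difference was -0.61 (SE 0.18), 1.52-fold, with an interval of -1.04 to -0.17 (limma adjusted p = 0.605; 3 of 3 HOXB4 values lower). The promoters of these 2 ephrins are shown because they are the only ephrin genes without overlap between the groups. Each runs from 250 bases before to 50 bases after the RefSeq start of transcription, 5′ to 3′ on the gene's strand. Capitals mark TAATTA, a core sequence that many homeodomain proteins bind, which occurs once, 175 bases before the start of Efna1, and not in the Efnb1 window or at a second, downstream start of Efna1.
Efna1, chr3:89280902-89281201, minus strand: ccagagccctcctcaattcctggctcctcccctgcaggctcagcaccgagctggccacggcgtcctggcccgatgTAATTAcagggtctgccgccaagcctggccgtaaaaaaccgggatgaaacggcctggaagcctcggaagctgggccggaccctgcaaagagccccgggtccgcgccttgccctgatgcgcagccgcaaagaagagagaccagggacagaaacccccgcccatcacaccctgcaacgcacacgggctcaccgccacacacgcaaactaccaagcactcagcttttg
Efnb1, chrX:99135811-99136110, plus strand: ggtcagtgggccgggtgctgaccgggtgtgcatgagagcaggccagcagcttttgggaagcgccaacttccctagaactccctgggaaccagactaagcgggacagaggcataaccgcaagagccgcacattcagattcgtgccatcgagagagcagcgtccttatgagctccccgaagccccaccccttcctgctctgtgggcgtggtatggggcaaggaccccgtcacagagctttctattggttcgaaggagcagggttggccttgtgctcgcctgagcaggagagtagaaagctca

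Over all 32851 promoters of this length in the RefSeq table, TAATTA occurred in 5.29%, and over the 66 promoters of the 53 guidance genes with an entry in 4.55%, those of Efna1, Epha5 and Robo3. The composite TGATNNAT, bound by Pbx and Hox proteins together, occurred in 8.85% of all and 1.52% of guidance promoters (Sema6d). CCGGAA, the core bound by ETS factors, occurred in 14.9% and 7.58%. Both strands were searched. Guidance promoters were richer in G and C (median 64.5%) than all promoters (52.7%). A match is a description of the letters and not a binding site.

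**Figure D2:**
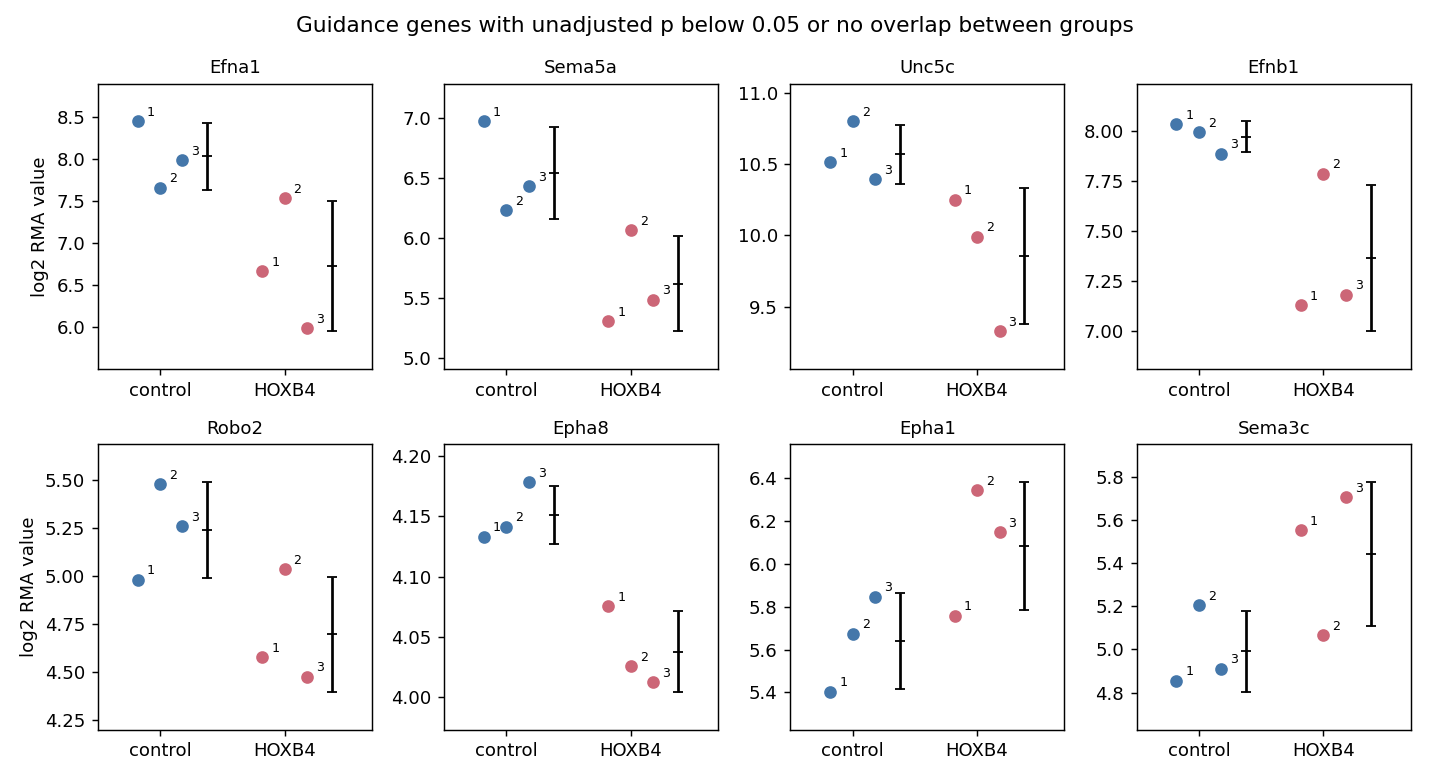
Log2 RMA value on each array of the 8 guidance genes with an unadjusted p below 0.05 or no overlap between groups; points are arrays numbered by replicate, and bars are mean ± SD of 3 arrays. In Efna1, Efnb1, Sema5a, Robo2 and Sema3c the array HOXB4 2 lies nearest to the controls, and Robo2, Epha8 and Sema3c are under the background bar of 5.43.

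In the other class A ephrins, as in Efna1, the HOXB4 arrays ranged more widely than the groups differed. Efna3 stood at 9.09, 8.59 and 9.51 on control arrays and 7.52, 9.79 and 7.78 on HOXB4 arrays. HOXB4 2 was the highest of the 6 arrays, HOXB4 1 and 3 the lowest, and the difference was -0.70 (SE 0.59), with an interval of -2.11 to 0.72. Efna4 and Efna5 differed by -0.40 (SE 0.26) and -0.24 (SE 0.42), with HOXB4 2 at 8.43 and 9.22, and Efna2 by -0.39 (SE 0.18), with HOXB4 2 at 7.84, all 3 within or above the controls. Without single arrays Efna4 ran from -0.64 (control 2 left out) to -0.18 (control 3 left out), and Efna2 from -0.53 (HOXB4 2) to -0.21 (HOXB4 1). For Efnb3, a transmembrane ephrin best known in the nervous system, the values were 6.02, 6.05 and 5.997 on control arrays and 5.21, 6.15 and 5.39 on HOXB4 arrays. The controls lay close together, HOXB4 2 above them and HOXB4 1 and 3 below, for a difference of -0.44 (SE 0.23).

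Efnb2, the arterial ephrin, was well above background, at 12.18, 12.38 and 12.62 on control arrays and 12.83, 12.32 and 12.90 on HOXB4 arrays. HOXB4 1 and 3 were above every control, while HOXB4 2 lay between controls 1 and 2. The difference of 0.29 (SE 0.19) had an interval of -0.15 to 0.74, so a rise or fall of more than 1 log2 unit lies outside it. Its receptor gene Ephb4, a marker of venous endothelium, stood at 8.32, 9.03 and 8.52 on control arrays and 9.72, 8.56 and 9.15 on HOXB4 arrays. HOXB4 1 was the highest array, HOXB4 2 lay beside control 3, and the difference was 0.52 (SE 0.31), 0.23 without HOXB4 1 and 0.81 without HOXB4 2.

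Of 13 Eph receptor genes, 6 differences were below 0 and 7 above, 0 passed the adjusted threshold and 7 genes were above background. Epha1 stood at 5.40, 5.67 and 5.85 on control arrays and 5.76, 6.34 and 6.15 on HOXB4 arrays. Controls 1 and 2 lay below every HOXB4 array, and control 3 lay between HOXB4 1 and 3. It differed by 0.44 (SE 0.18), 1.36-fold, with an adjusted p of 0.605 by limma. Epha2, a receptor for ephrin-A1 that is active in early mesoderm and endothelium, stood at 5.96, 5.93 and 6.54 on control arrays and 6.35, 6.73 and 6.78 on HOXB4 arrays. The groups overlapped through control 3 and HOXB4 1, and the difference was 0.48 (SE 0.20), an interval of -0.00376 to 0.96. Epha4 and Epha7 differed by -0.21 (SE 0.21) and 0.081 (SE 0.28), and Ephb1 and Ephb3 by 0.0266 (SE 0.11) and -0.15 (SE 0.24). The sign or size of each of these 4 depended on single arrays. Epha4 was -0.0205 without HOXB4 1, where Ephb3 turned to 0.0329. Epha7 turned to -0.13 without HOXB4 2 and to -0.11 without control 2. Ephb1 turned to -0.0438 without control 3, to -0.0356 without HOXB4 3 and to -0.11 as the mean of its features. The kept Ephb1 feature ran from 5.37 to 5.67 on the 6 arrays and the dimmer one from 4.35 to 4.83.

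Among semaphorin genes, 13 of 19 differences were above 0, with a median of 0.0815, while 60.0% of all genes lay below 0. None passed the adjusted threshold, and 12 of the 19 were above background. At an unadjusted p of 0.05, 1 was lower and 1 higher, beside 5.95% and 2.23% of all genes. Sema5a, which encodes a transmembrane semaphorin with thrombospondin repeats, stood at 6.97, 6.23 and 6.43 on control arrays and 5.31, 6.06 and 5.48 on HOXB4 arrays. Every HOXB4 value was below every control value, HOXB4 2 by the smallest margin. It differed by -0.92 (SE 0.26), 1.9-fold, with an interval of -1.53 to -0.31, the smallest unadjusted p of the guidance genes and an adjusted p of 0.605 by limma (3 of 3 HOXB4 values lower). The gene lies at chr15:32244813-32696341. Its class partner Sema5b stood at 5.07, 6.15 and 5.04 on control arrays and 6.40, 4.999 and 5.796 on HOXB4 arrays, with control 2, HOXB4 1 and HOXB4 3 above the other 3 arrays, and its difference turned to -0.0236 without HOXB4 1.

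Class 3 semaphorins are secreted. Sema3f, a ligand of neuropilin 2, stood at 7.38, 7.24 and 7.28 on control arrays and 7.64, 7.23 and 8.31 on HOXB4 arrays. HOXB4 1 and 3 were above every control and HOXB4 2 below them all, for a difference of 0.42 (SE 0.26), 0.13 without HOXB4 3. Sema3e, which binds plexin D1 directly and repels endothelial sprouts, stood at 6.34, 6.21 and 6.69 on control arrays and 6.16, 6.94 and 6.64 on HOXB4 arrays. The groups overlapped widely, the difference was 0.16 (SE 0.22), and it turned to -0.0150 without HOXB4 2. Sema3c, a ligand known from the cardiac outflow tract, was under the background bar, at 4.86, 5.20 and 4.91 on control arrays and 5.55, 5.07 and 5.70 on HOXB4 arrays; HOXB4 1 and 3 lay above every control and HOXB4 2 among them. Sema3a, another neuropilin ligand, ran from 6.84 to 8.04 and was highest in control 2, HOXB4 1 and HOXB4 3. Sema3d, Sema3a and Sema3e are neighbours on chromosome 5, and Sema3b and Sema3f on chromosome 9, with differences of either sign in each set.

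In class 4, all 5 differences were above 0, from 0.02 to 0.28, a sign that turned for 2 of the 5 without control 2 and for 1 without control 3, HOXB4 2 or HOXB4 3. Sema4c, a ligand of plexin B2, stood at 6.40, 6.97 and 6.88 on control arrays and 7.06, 6.94 and 7.08 on HOXB4 arrays, with control 1 alone standing low, and differed by 0.28 (SE 0.16), or 0.10 without control 1. In class 6, Sema6a, a transmembrane ligand of plexin A2 and A4 also described in endothelium, stood at 8.14, 9.37 and 8.69 on control arrays and 10.13, 9.02 and 9.17 on HOXB4 arrays. HOXB4 1 was the highest array and control 2 the second highest, and the difference was 0.71 (SE 0.39), 0.36 without HOXB4 1. Sema6d, a ligand of plexin A1 with a part in heart formation, stood at 6.17, 7.17 and 6.25 on control arrays and 8.07, 6.19 and 6.82 on HOXB4 arrays. HOXB4 1 and control 2 were again the highest, and the difference of 0.49 (SE 0.50) turned to -0.0291 without HOXB4 1. Sema7a, a lipid-anchored ligand of plexin C1, stood at 5.22, 5.52 and 5.71 on control arrays and 5.35, 5.73 and 5.20 on HOXB4 arrays, and its difference of -0.0597 (SE 0.18) changed sign without control 3 (0.0540) or HOXB4 3 (0.0527).

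Plexin genes showed 4 differences below 0 and 5 above, with 8 of 9 above background and 0 past the adjusted threshold. Plxnc1, the receptor for semaphorin 7A, stood at 8.24, 9.43 and 9.13 on control arrays and 10.95, 9.28 and 9.74 on HOXB4 arrays. HOXB4 1 was more than 1 log2 unit above every other array, and HOXB4 2 lay between controls 2 and 3. The difference was 1.06 (SE 0.48), 2.08-fold, an interval of -0.0816 to 2.20 (limma adjusted p = 0.610), and 0.58 without HOXB4 1. Plxnd1, the semaphorin 3E receptor of endothelium, stood at 10.15, 12.18 and 10.49 on control arrays and 12.74, 9.98 and 11.16 on HOXB4 arrays. HOXB4 1 and control 2 were highest and HOXB4 2 lowest, so the spread within each group exceeded the difference of 0.35 (SE 0.78). That difference turned to -0.37 without HOXB4 1 and to -0.0430 without control 1, and was 1.00 without HOXB4 2.

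Plxna1, a receptor used with neuropilins, stood at 9.82, 10.44 and 10.14 on control arrays and 10.50, 10.25 and 10.54 on HOXB4 arrays. The groups overlapped through control 2, and the difference was 0.30 (SE 0.17), 0.14 without control 1. Plxnb2, a receptor for class 4 semaphorins, stood at 9.86, 9.03 and 9.502 on control arrays and 8.45, 9.56 and 8.46 on HOXB4 arrays. HOXB4 1 and 3 lay below every control and HOXB4 2 between controls 1 and 3, for a difference of -0.64 (SE 0.35). Plxna2 and Plxna4, receptors for class 6 semaphorins, were high in controls 1 and 3 and HOXB4 2 for Plxna2 (8.29, 8.44 and 9.09, against 7.26 to 7.45) and in control 3 and HOXB4 2 for Plxna4 (7.998 and 7.96, against 6.31 to 6.87). Their differences of -0.0503 (SE 0.53) and -0.29 (SE 0.53) were smaller than the spread within either group. Without control 3 they turned to 0.17 and 0.12, and that of Plxna2 also turned without control 1 (0.0958), HOXB4 1 (0.27) or HOXB4 3 (0.20). Plxna3 and Plxnb1 differed by 0.12 (SE 0.095) and 0.25 (SE 0.17), and without control 1 by 0.0553 and 0.0681.

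Slit2, a secreted repellent that acts through Robo receptors, stood at 5.22, 7.59 and 5.18 on control arrays and 8.79, 5.25 and 8.64 on HOXB4 arrays. Control 2, HOXB4 1 and HOXB4 3 stood high and the other 3 arrays just under the background bar. The means were 5.996 ± 1.38 on control and 7.56 ± 2.01 on HOXB4 arrays (SD, n = 3 per group), and the difference of 1.56 (SE 1.08) had an interval of -1.02 to 4.14 (limma adjusted p = 0.693; 2 of 3 HOXB4 values above every control). It was 0.95 without HOXB4 1 and 2.72 without HOXB4 2. With 3 of the 6 arrays under the bar, the size of these differences is uncertain. Slit3, also present in mesenchyme, stood at 7.45, 7.38 and 7.69 on control arrays and 7.01, 8.02 and 7.46 on HOXB4 arrays, with HOXB4 2 highest and HOXB4 1 lowest. Its difference of -0.0103 (SE 0.25) became 0.0104 with arrays centred on their medians and 0.0323 with cyclic loess. Robo1, the receptor gene of this family that was above background, stood at 8.94, 9.52 and 8.74 on control arrays and 9.89, 8.80 and 9.24 on HOXB4 arrays. HOXB4 1 and control 2 were highest, and the difference of 0.25 (SE 0.31) turned to -0.0454 without HOXB4 1. Robo2 was under the background bar, at 4.98, 5.48 and 5.26 on control arrays and 4.58, 5.03 and 4.48 on HOXB4 arrays, with HOXB4 1 and 3 below every control and HOXB4 2 above control 1.

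Netrin genes were not detected above background. Ntn1, the best studied netrin, stood at 4.86, 4.89 and 4.81 on control arrays and 4.82, 4.91 and 4.97 on HOXB4 arrays, and Ntn4 and Ntn5 ran from 3.80 to 4.07 and from 4.41 to 4.54. Their Unc5 receptors were in contrast well above background for 2 of 4 genes. Unc5c stood at 10.51, 10.80 and 10.39 on control arrays and 10.25, 9.99 and 9.33 on HOXB4 arrays. Every HOXB4 array lay below every control array, HOXB4 3 farthest. It differed by -0.71 (SE 0.24), 1.64-fold, with an interval of -1.29 to -0.13 and a limma adjusted p of 0.605 (3 of 3 HOXB4 values lower); without HOXB4 3 the difference was -0.45. The gene lies at chr3:141465564-141834924. Unc5b, a netrin receptor of endothelial tip cells, stood at 10.15, 10.21 and 10.21 on control arrays and 9.77, 10.44 and 9.73 on HOXB4 arrays. The controls lay close together, HOXB4 2 above them and HOXB4 1 and 3 below, for a difference of -0.22 (SE 0.19), -0.0915 without HOXB4 3 and -0.45 without HOXB4 2.

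The 22 genes under the background bar ran from 3.29 to 5.70 on single arrays. They were the receptors Epha3, Epha5, Epha6, Epha8, Epha10, Ephb6, Plxnb3, Robo2, Robo3, Unc5a and Unc5d and the ligands Sema3b, Sema3c, Sema3d, Sema3g, Sema4f, Sema4g, Sema6c, Slit1, Ntn1, Ntn4 and Ntn5. Epha8, which had no overlap, stood at 4.13, 4.14 and 4.18 on control arrays and 4.08, 4.03 and 4.01 on HOXB4 arrays, a narrow span that is not read as expression.

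Several guidance genes had the same arrays high as the endothelial markers. The mean of 12 measured endothelial markers was 8.88, 10.19 and 8.77 on control arrays and 11.10, 8.59 and 9.98 on HOXB4 arrays. Thus HOXB4 1, control 2 and HOXB4 3 were high and HOXB4 2 lowest, with 8.77 to 10.19 in controls and 8.59 to 11.10 in HOXB4 cells. Of these markers 12 of 12 had differences above 0, while 60.0% of all genes lay below 0. The groups overlapped for each of them. With 1 array left out, the differences of Kdr, Cdh5, Tek, Tie1, Erg, Emcn and Sox18 could turn below 0, that of Cdh5 to -0.63. Of the 12, 0 passed the adjusted threshold, and Emcn alone was under the background bar. Control 2, HOXB4 1 and HOXB4 3 were also the highest arrays for the ligands Slit2, Sema3a, Sema3c, Sema4c, Sema5b, Sema6a and Sema6d. The same held for the receptors Ephb4, Plxna1, Plxnc1, Plxnd1 and Robo1. Sema3c was under the background bar, and Sema4c had 6.97 on control 2 against 6.94 on HOXB4 2. The share of all genes with this order was not counted. Over all genes HOXB4 2 correlated best with control 3 (0.998) and control 2 with HOXB4 3 (0.995). The part of endothelial RNA in the values of these guidance genes was not tested.

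**Figure D3:**
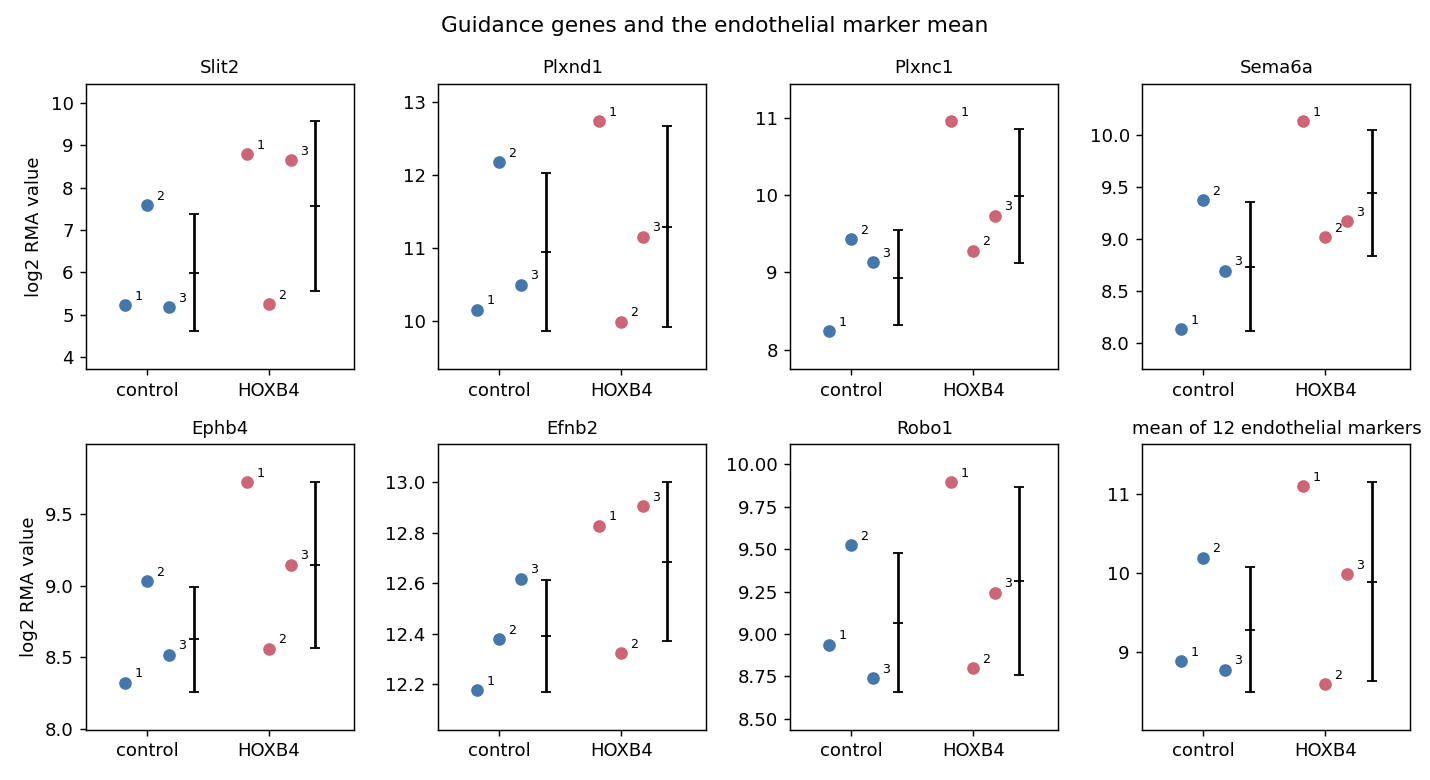
Log2 RMA value on each array of 7 guidance genes and of the mean of 12 endothelial markers; points are arrays numbered by replicate, and bars are mean ± SD of 3 arrays. Control 2, HOXB4 1 and HOXB4 3 are the 3 highest arrays in every panel except that of Efnb2.

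The mean of 9 cardiac markers was 8.11, 7.80 and 7.80 on control arrays and 6.81, 7.58 and 6.69 on HOXB4 arrays. It was 7.80 to 8.11 in controls and 6.69 to 7.58 in HOXB4 cells, with HOXB4 2 nearest to the controls and Nkx2-5 under the background bar. Differences were below 0 for 7 of the 9, against 60.0% of all genes, and 0 passed the adjusted threshold. Tnnt2 and Mef2c differed by 0.26 and 0.85. Hand2 and Tbx20 differed by -1.21 and -1.89, with every HOXB4 value, HOXB4 2 included, below every control value, as in 10.2% of all genes. Hand1, a cardiac and extra-embryonic mesoderm factor, stood at 13.79, 12.82 and 13.46 on control arrays and 8.98, 12.83 and 8.61 on HOXB4 arrays, so that HOXB4 2 lay within the controls. Efna1, Efna2, Efna3, Efna4, Efnb1, Efnb3, Sema5a, Plxna4, Plxnb2, Epha4, Ephb3 and Unc5b, among genes above background, likewise had HOXB4 1 and 3 as their lowest arrays. The share of all genes with this order was not counted, and HOXB4 2 was close to controls 1 and 3 over all genes. The part of cardiac mesoderm RNA in the values of these guidance genes was not tested. The 7 paraxial and mesenchymal markers had means of 5.89 to 6.18 in controls and 5.42 to 5.96 in HOXB4 cells, and Meox1, Tbx6, Foxc2 and Twist1 were under the bar. Of the 7, 6 had differences below 0 and 0 passed the adjusted threshold. Snai2, which differed by -1.03, and Twist1 had every HOXB4 value below every control value, as had 10.2% of all genes. The 7 neural markers had means of 5.46 to 5.60 and 5.62 to 5.96, with Sox1, Pax6, Olig2 and Dcx under the bar. Tubb3, a neuronal tubulin, carried the higher mean, with a difference of 1.95 (SE 0.62), while the other 6 differed by -0.18 to 0.0964. Blood markers had means of 6.69 to 7.05 and 6.86 to 6.92, with 5 differences below 0 and 6 above. Among them Hbb-bh1 differed by -1.15 (SE 1.13) and Gata2 by 1.07 (SE 0.72). Pluripotency markers had means of 6.47 to 7.08 and 6.92 to 7.67, with 6 of 6 differences above 0. Zfp42 and Utf1, the latter under the bar, were higher without overlap, as were 3.24% of all genes. Endoderm markers had means of 4.58 to 4.70 and 4.74 to 4.79. In these 3 lists 0 genes passed the adjusted threshold.

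**Figure D4:**
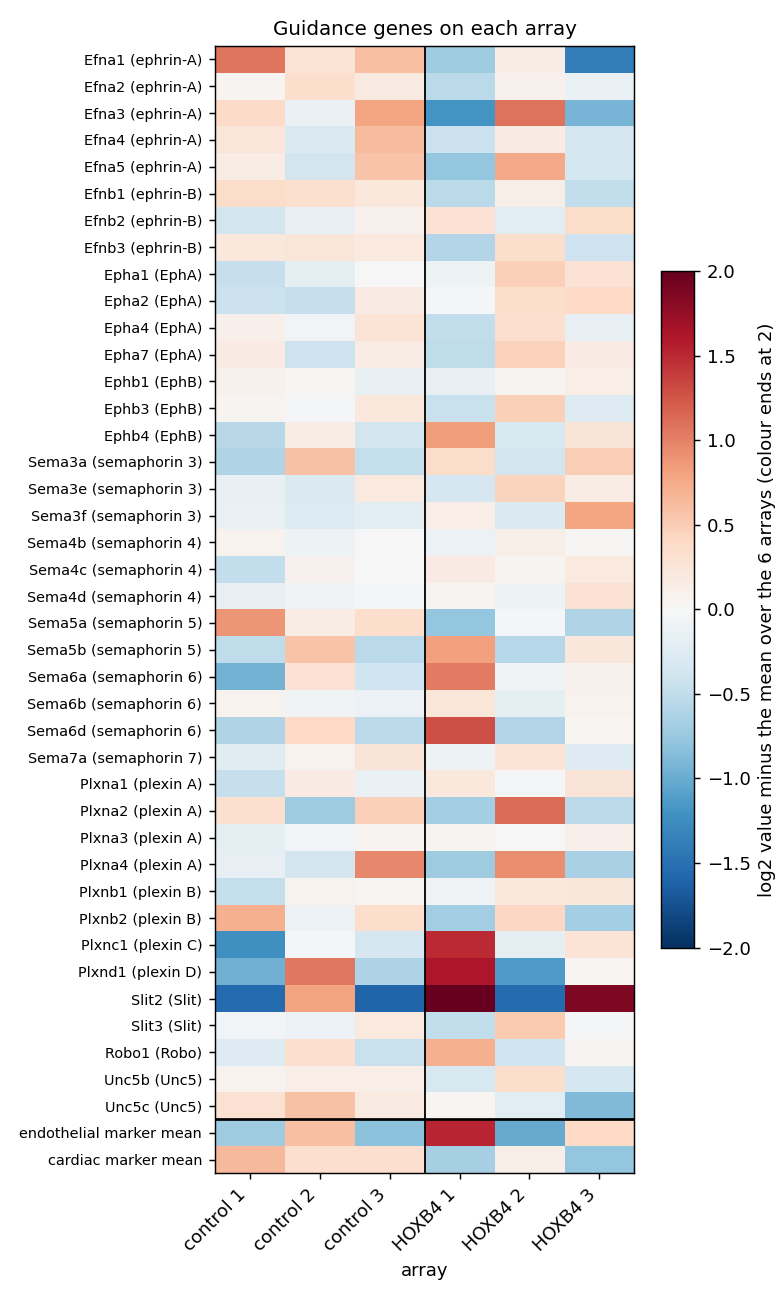
Each guidance gene above background (rows, by family) on each array (columns), as log2 value minus the gene's mean over the 6 arrays, with the endothelial and cardiac marker means in the last rows. Slit2, Plxnd1 and Plxnc1 are highest on array HOXB4 1, and Efna1 is lowest on HOXB4 3.

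Across genes, HOXB4 2 correlated more closely with the controls than with the other HOXB4 arrays. Over all genes its correlation was 0.998 with control 3 and 0.996 with control 1, against 0.991 with HOXB4 1 and 0.993 with HOXB4 3, a description of values that share features and scaling. In the same way control 2 stood slightly closer to HOXB4 1 (0.9946) and HOXB4 3 (0.995) than to control 1 (0.9944) and control 3 (0.9943). Without control 2, 9 guidance genes were below an unadjusted p of 0.05. Without HOXB4 2, 46 genes were called over the whole array (0.150%) and 0 of the 62 guidance genes. At an unadjusted p below 0.05 there were then 18 guidance genes (29.0% against 13.9% of all genes), 12 lower (19.4% against 8.52% of all genes) and 6 higher (9.68% against 5.38%). Of these 18, 6 had been below that level with all arrays. The omission was chosen with the values known, and the shares are a description.

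Of the 18, 16 were above background and 6 were ephrins, 5 of them lower, beside 13.9% of all genes at that level and 8.52% lower. Differences without HOXB4 2 were -1.70 for Efna1, -1.41 for Efna3, -0.53 for Efna2, -0.82 for Efnb1, -0.72 for Efnb3 and 0.47 for Efnb2. Among receptors, Plxnb2, Unc5c, Unc5b, Epha4 and Ephb3 were lower (-1.01, -0.78, -0.45, -0.43 and -0.43), and Plxnc1 and Ephb4 were higher (1.41 and 0.81). Slit2 and Sema3f were higher (2.72 and 0.67) and Sema5a lower (-1.15), with Robo2 and Sema3c the 2 under the background bar. The smallest adjusted p of a guidance gene in this fit was 0.0762, for Efnb1, whose adjusted p ran up to 0.925 over the alternatives.

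**Figure D5:**
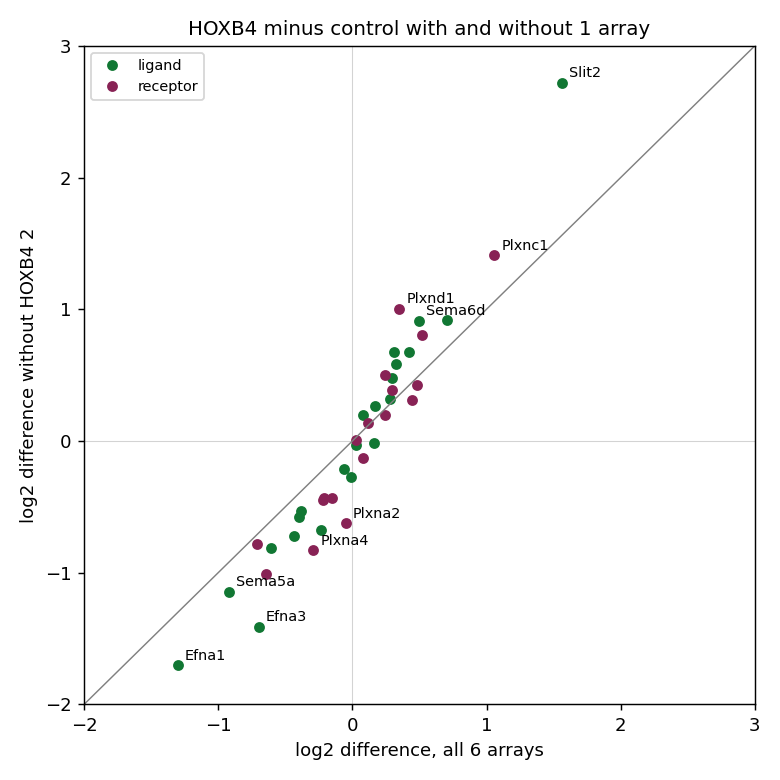
Log2 difference, HOXB4 minus control, of the 40 guidance genes above background with all 6 arrays (horizontal axis) and without HOXB4 2 (vertical axis); the diagonal marks equal values. Slit2 moves from 1.56 to 2.72 and Efna3 from -0.70 to -1.41.

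Other genes of these pathways were taken from a list outside the name rule. Of 15 measured co-receptors and further ligands, 0 passed the adjusted threshold, 1 was higher and 0 lower at an unadjusted p of 0.05, beside 2.23% and 5.95% of all genes, 9 differences were below 0, and 8 genes were above background. The higher gene was Neo1, which encodes neogenin, a receptor for netrins and RGM proteins. Its values were 9.02, 9.17 and 9.56 on control arrays and 9.81, 9.73 and 9.79 on HOXB4 arrays. All HOXB4 arrays, HOXB4 2 included, lay above all controls, as for 3.24% of all genes. The difference was 0.53 (SE 0.15), with a limma adjusted p of 0.605. Rgmb, with a difference of -0.13, and Dcc were lower without overlap, as were 10.2% of all genes. Nrp2, the co-receptor of semaphorin 3F, stood at 12.87, 12.72 and 13.17 on control arrays and 12.99, 13.42 and 12.73 on HOXB4 arrays and differed by 0.12 (SE 0.20), or -0.0623 to 0.28 when 1 array was left out. Dcc, the classical netrin receptor, was under the background bar, at 3.44 to 3.64.

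Of 32 measured genes that signal below these receptors, 0 passed the adjusted threshold, 0 were higher and 1 lower at an unadjusted p of 0.05, beside the same shares of all genes, and 11 differences were below 0 and 21 above. Neither the 0 higher nor the 1 lower stands above its share of all genes. Over all genes 60.0% of differences lay below 0. The lower gene was Pdzrn3, a ubiquitin ligase with PDZ domains that acts in vessels, at 6.99, 6.85 and 6.85 on control arrays and 6.40, 6.55 and 6.58 on HOXB4 arrays. The groups did not overlap, as for the 10.2% of all genes that were lower in this way. The difference was -0.39 (SE 0.0951), with a limma adjusted p of 0.605. Nck2, with a difference of 0.12, was higher without overlap, as were 3.24% of all genes. A pair of further genes was picked after the values were seen. Dpysl3, a collapsin response mediator, stood at 7.31, 9.40 and 7.01 on control arrays and 10.61, 7.23 and 9.66 on HOXB4 arrays. Srgap1, which acts downstream of Robo receptors, stood at 6.79, 8.35 and 7.21 on control arrays and 9.36, 7.01 and 8.60 on HOXB4 arrays. In both, as in Slit2, control 2, HOXB4 1 and HOXB4 3 were the 3 highest arrays, and the differences of 1.26 (SE 0.97) and 0.87 (SE 0.65) were within the spread of the groups.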

How the data were processed

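Each of 6 samples of sorted cells was measured on 1 array, from 100 ng of RNA made into biotinylated cDNA, per the labels' protocols. The deposited values are log2 expression summaries that the authors made with Affymetrix Expression Console and RMA, per the submitters' processing notes. Versions and settings of these tools: not given in the sources used here. RMA by design equalises arrays, so a shift of most genes would be partly removed. Of 65956 features other than controls, 31258 named 1 gene (symbols updated through RefSeq, GRCm38.p6), 1492 several and 33206 none, and the brightest feature stood for each of 30702 genes.

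Sample titles gave the groups. The difference HOXB4 minus control was estimated by lmFit and eBayes of limma 3.58.1 (R 4.3.3), two-sided, without a replicate block, with Benjamini-Hochberg adjustment over all genes at 0.05. SE is the moderated standard error. The fit was tested on simulated data with noise independent between arrays. There 74.0% of 2-fold and 97.0% of 4-fold changes were recovered, and 12 unchanged genes were called. The simulation lacked the likeness of arrays across groups seen here, so it gives no measure of power in these data. Tables and plots used Python 3.11.15, pandas 2.3.3 and matplotlib 3.10.9. Values on every array are given for guidance genes with an unadjusted p below 0.05, without overlap, with the largest difference in their family above background, or in a set known from vessels and mesoderm, and further genes were added after their values were seen. Promoters are from RefSeq, GRCm38.p6. Genes, lists and alternatives were chosen with earlier results of these data known. Alternatives were a replicate block, another prior, array weights, a filter on dim features, 2 scalings, 2 feature rules, no moderation and each array left out.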

Additional observations from a re-analysis of the deposited data

How the results depend on the processing

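No guidance gene was called under any of the 15 alternatives. All genes called were 0 in each, except that leaving out 1 array gave 0 to 46 (46 without HOXB4 replicate 2). Guidance genes below an unadjusted p of 0.05 numbered 7, 3 without moderation, 3 to 18 when 1 array was left out (3 without control 1, 18 without HOXB4 2, 4 without HOXB4 3) and 5 to 10 under the remaining alternatives. For the 40 guidance genes above background, 28 of 600 values under alternatives turned in sign, 15 genes turning without 1 array and 2 under another setting. Slit3 turned to 0.0104 with arrays centred on their medians and to 0.0323 with cyclic loess, and Ephb1 to -0.11 as the mean of its features. When 1 array was left out, the range was -0.68 to 0.0925 for Efna5, -0.13 to 0.35 for Epha7, -0.0438 to 0.11 for Ephb1, -0.43 to 0.0329 for Ephb3, -0.62 to 0.27 for Plxna2, -0.83 to 0.12 for Plxna4, -0.37 to 1.00 for Plxnd1, -0.0454 to 0.50 for Robo1, -0.0150 to 0.37 for Sema3e, -0.0294 to 0.0867 for Sema4b, -0.0236 to 0.68 for Sema5b, -0.0199 to 0.20 for Sema6b, -0.0291 to 0.91 for Sema6d, -0.21 to 0.0540 for Sema7a and -0.27 to 0.23 for Slit3. The cause was not tested. With the replicate number as a block, 0 guidance genes were called and 8 were below an unadjusted p of 0.05. Deviations of same-numbered arrays from their group means correlated at -0.40, -0.59 and -0.35, and no array correlated best with its own number. Deviations sum to 0 within a group, which ties these values together. Whether the numbers mark shared experiments therefore cannot be decided here. Genes near the background features, 22 of the 62, carry little information on differences.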
